A study of Mus musculus with 2 samples.

Results

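The genes described here are the nuclear-encoded subunits of the respiratory chain and of ATP synthase, chosen by name from the array's gene annotation. All gene names starting with Nduf, Uqcr, Sdha to Sdhd, Atp5, or Cox followed by 4 to 8 were taken, except names ending in Rik, which gave 82 of the 27962 gene names on the array, with 113 probes. By complex, 37 names belonged to complex I, 4 to complex II, 7 to complex III, 18 to complex IV and 16 to complex V. Gene expression had been measured on 1-colour Agilent arrays in R1, a line of mouse embryonic stem (ES) cells. The day 0 sample was undifferentiated R1 cells, which were kept on growth-arrested fibroblasts as feeders, in medium with serum (15% FBS) and 1000 U/ml of LIF, leukaemia inhibitory factor. The day 6 sample was R1 cells on day 6 of a published direct neural differentiation, labelled embryoid body cells and, in the description, neural precursors. The same ES maintenance conditions (15% FBS and 1000 U/ml of LIF) are listed for its cells. The medium of the day 6 culture itself is not stated in the sources used here. Each sample was 1 array, both came from the same single line, and no transgene or allele is named for either.

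The respiratory chain passes electrons from NADH (at complex I) and succinate (at complex II) through ubiquinone to complex III, then through cytochrome c to complex IV, which reduces oxygen. Complexes I, III and IV pump protons, and complex V, the ATP synthase, uses the proton gradient to make ATP. Most subunits are encoded in the nucleus, and several of complexes IV and V come as paralogous genes with tissue-restricted forms, for example in muscle or testis. Pluripotent cells are known for strong glycolysis, and the chain is usually studied in them as it is remodelled on differentiation.

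The cells matched their labels by defining markers. All 5 pluripotency markers tested (Pou5f1, Nanog, Zfp42, Esrrb and Dppa5a, listed on the array as Dppa5) were at least 2-fold lower on day 6, with a median log2 difference of -6.16, and all 7 neural markers had passed 2-fold upward, at a median of 5.90. Of 7 fibroblast markers, 5 were at least 2-fold lower on day 6, while Col3a1 and Postn were slightly higher (log2 differences of 0.23 and 0.30). The summed intensity of all 7 was 122127 on day 0 and 22442 on day 6. Feeder cells, medium, aggregation and differentiation therefore cannot be told apart in any difference below, and in bulk RNA fewer cells of a type and less RNA per cell cannot be told apart either. With 1 array a group there is no test and no replicate check. Differences are day 6 minus day 0 in log2 intensity after the 75th percentile of each array was subtracted. The error given is the SD from the scanner software's error model, 0.20 log2 units for the median member, which follows from that model's setting and does not hold the spread between cultures.

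Of the 113 probes, those for the members on which the results turn are shown here, so that the measured transcripts can be identified. They are 60 bases long, are credited to the array design and carry its mouse build mm7 positions, without a strand. No gene annotation of that build was used here, so exon positions are not given. The first pair are probes for Atp5g1 (NM_007506, chr11:96182649-96182708) and Atp5g2 (NM_026468, chr15:102651312-102651371), whose genes encode the same mature c subunit of ATP synthase behind different targeting sequences. Capitals mark the 14 bases that both share as their longest common run. Aligned on that run, 34 of 46 bases (73.9%) were identical. A further Atp5g2 probe (chr15:102649170-102649229) is given because it was the brighter one for that gene.
Atp5g1: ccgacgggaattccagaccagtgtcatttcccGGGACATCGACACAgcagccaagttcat
Atp5g2, shared run: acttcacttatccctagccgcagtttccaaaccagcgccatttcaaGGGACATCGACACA
Atp5g2, brighter probe: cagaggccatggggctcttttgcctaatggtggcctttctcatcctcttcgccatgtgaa
The next sequences identify the muscle-type paralogue Cox7a1 (NM_009944, no position listed), which was lower, the second, dimmer probe for Uqcrc1 (NM_025407, chr9:108659226-108659705, a span longer than the probe), whose gene stood just inside 2-fold by its brighter probe, Ndufa6 (NM_025987, chr15:82435409-82435468), the highest complex I member, and Cox4i1 (NM_009941, chr8:119308998-119309057), the common form of a regulatory complex IV subunit. No part of these is capitalised.
Cox7a1: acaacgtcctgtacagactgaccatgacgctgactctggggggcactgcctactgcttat
Uqcrc1: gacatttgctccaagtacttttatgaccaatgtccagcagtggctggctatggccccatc
Ndufa6: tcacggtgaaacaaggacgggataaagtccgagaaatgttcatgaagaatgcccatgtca
Cox4i1: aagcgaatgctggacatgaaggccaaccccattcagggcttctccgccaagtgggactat

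The chain as a whole differed little between the arrays. Of the 82 members, 78 were well above background on both arrays, 2 on 1 array only (Cox8c on day 0 and Cox6a2 on day 6) and 2 on neither (Cox4i2 and Cox8b). Among the 80 measured members, 0 were at least 2-fold higher on day 6, 5 (6.25%) were at least 2-fold lower and 75 lay within 2-fold. Over all 18877 measured genes, 3402 (18.0%) lay at least 2-fold up and 3548 (18.8%) at least 2-fold down. Most members had bright probes, so genes with a geometric mean intensity of at least 10000 were also counted, a limit chosen after seeing the data. Of 5113 such genes, 393 (7.69%) were higher and 729 (14.3%) lower, against 0 and 2 (2.74%) of the 73 members at that brightness. The 5 members past 2-fold were Cox4nb, Atp5g1, Cox7a1, Ndufa11 and Cox8c, and each stayed below 0 under every setting tried for it. Just outside the threshold stood Uqcrc1 at -0.999, and then Cox5a at -0.66.

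The differences of the members were also closely packed. Their SD was 0.42 log2 units over the 78 members measured on both arrays. It was 1.37 for the 15830 genes measured on both arrays and 0.95 for genes of at least 10000 intensity units. Of these 78, 64 (82.1%) lay within 0.5 log2 units of 0, against 40.8% of the 15830 genes and 49.8% of the bright ones. Within 2 software SDs of 0 lay 55 members (70.5%), against 36.6% of the 15830 genes. The median member stood at -0.24, all 18877 measured genes at -0.04 and bright genes at -0.22. The bright genes share only the lower limit with the members, since their median intensity on day 0 was 26787, against 92250 for the members above that limit. The sign of the members' median depended on the normalization. The median was -0.03 without scaling, where the median of all genes was 0.17. It was 0.07 both after quantile normalization and in the authors' deposited value table, where the median of all genes was 0.02. Across the settings tried, 32 members were below 0 in each, 13 above 0 in each, and 35 in neither group. Of these 35, Cox6a2 ran from 0, its bound, to 0.08, and the others changed sign. The 13 included Ndufs4, Ndufb3, Ndufb5, Ndufa6, Sdhb, Sdhc, Uqcrc2, Cox6b2 and Cox7a2l. Without scaling, the 2-fold counts over all genes were 4172 higher and 2844 lower, so that 59.5% of those past 2-fold were higher, against 49.0% with scaling.

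**Figure D1:**
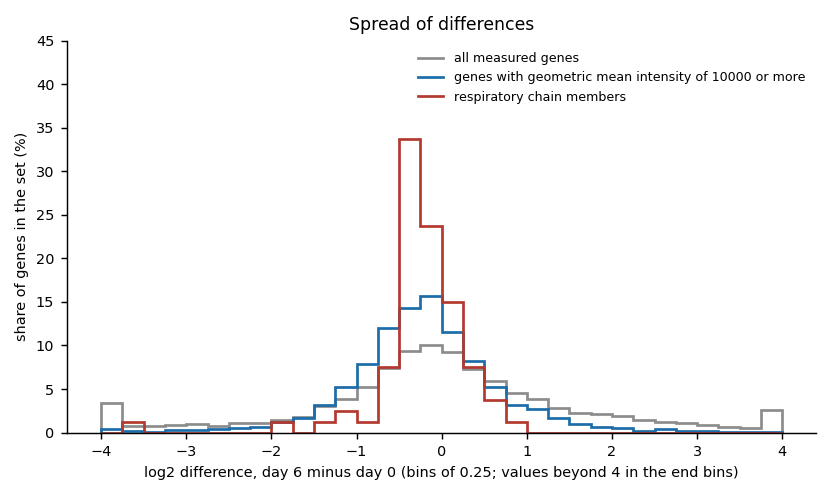
The x axis gives the log2 difference, day 6 minus day 0, in bins of 0.25, and the y axis the share of each set in percent, for all 18877 measured genes, the 5113 genes of at least 10000 intensity units and the 80 measured members. The members form the narrowest of the 3 outlines, with 82.1% of the 78 on both arrays within 0.5 log2 units of 0; the isolated member near -3.5 is Cox8c, plotted at its measured value although it was dim on day 6.

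Complex I, NADH dehydrogenase, held 1 member past 2-fold. Of its 37 members, 36 lay within 2-fold, and the median was -0.11, but 0.13 after quantile normalization. The catalytic core holds the flavin, the iron-sulphur clusters and the quinone site. The gene of its largest subunit, Ndufs1, went from 93233 to 82759 intensity units and stood at -0.39 ± 0.20. Ndufv1, which binds the flavin and oxidises NADH, stood at -0.31, and its partner Ndufv2 at 0.11. The 29 names outside the core, with Ndufa4 included and the assembly factor Ndufaf1 left out, spread from -1.01 to 0.70 with a median of -0.11. Ndufa11, an accessory subunit of the membrane arm, had 11455 units (day 0) and 6616 units (day 6), a difference of -1.01 ± 0.20, and its second probe gave -0.87, which is under 2-fold. Ndufa6, an accessory subunit that binds the mitochondrial acyl carrier protein, had 24167 and 45473 units, a difference of 0.70 ± 0.20. Their differences lay 1.70 ± 0.29 apart (3.26-fold), a value in which any single scaling factor per array cancels. Other accessory members on the higher side were Ndufb5 at 0.43 and Ndufb11 at 0.32, and on the lower side Ndufs6 at -0.61 and Ndufb10 at -0.55. Ndufa4, counted here by its name although it is now assigned to complex IV, had 157921 and 155711 units and stood at -0.23, and its paralogue Ndufa4l2 was not analysed here. The assembly factor Ndufaf1, which the name rule also takes in, stood at -0.08.

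Complex II, succinate dehydrogenase, joins the chain to the citrate cycle and has no subunit encoded in mitochondria. All 4 of its genes were measured and all lay within 2-fold. Sdha, the flavoprotein that oxidises succinate, had intensities of 21259 (day 0) and 19579 (day 6), a difference of -0.33 ± 0.20. The iron-sulphur subunit gene Sdhb went from 34072 to 44074 units, a difference of 0.16 ± 0.20. The membrane anchors stood on either side of 0, with Sdhc at 10283.5 and 15739 units (0.40 ± 0.20) and Sdhd at 63931 and 65376 units (-0.18 ± 0.20, but above 0 without scaling). Each of the 4 lay within 2 software SDs of 0, and their median was -0.01.

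In complex III, the ubiquinol-cytochrome c reductase, the genes of the paired core proteins stood on opposite sides of 0. Uqcrc1 went from 116685 to 67685 intensity units, a difference of -0.999 ± 0.20, and its second probe gave -0.93. Uqcrc2, its partner in the matrix-side core, had 96151 and 138111 units by its only probe. Its difference was 0.31 ± 0.20, within 2 software SDs of 0. Each kept its side of 0 in every setting tried, and their differences lay 1.31 ± 0.29 apart (2.48-fold), in which a scaling factor cancels. Among the other 5 members, Uqcrb stood at -0.51, Uqcr (now Uqcr11) at -0.44, Uqcrq at -0.31 and Uqcrh, the hinge protein gene, at 0.08. Uqcrfs1, the Rieske iron-sulphur protein that passes electrons to the cytochrome of this complex, had 112110 and 115931 units and stood at -0.17. The median of the 7 was -0.31, and 0 of them passed 2-fold.

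**Figure D2:**
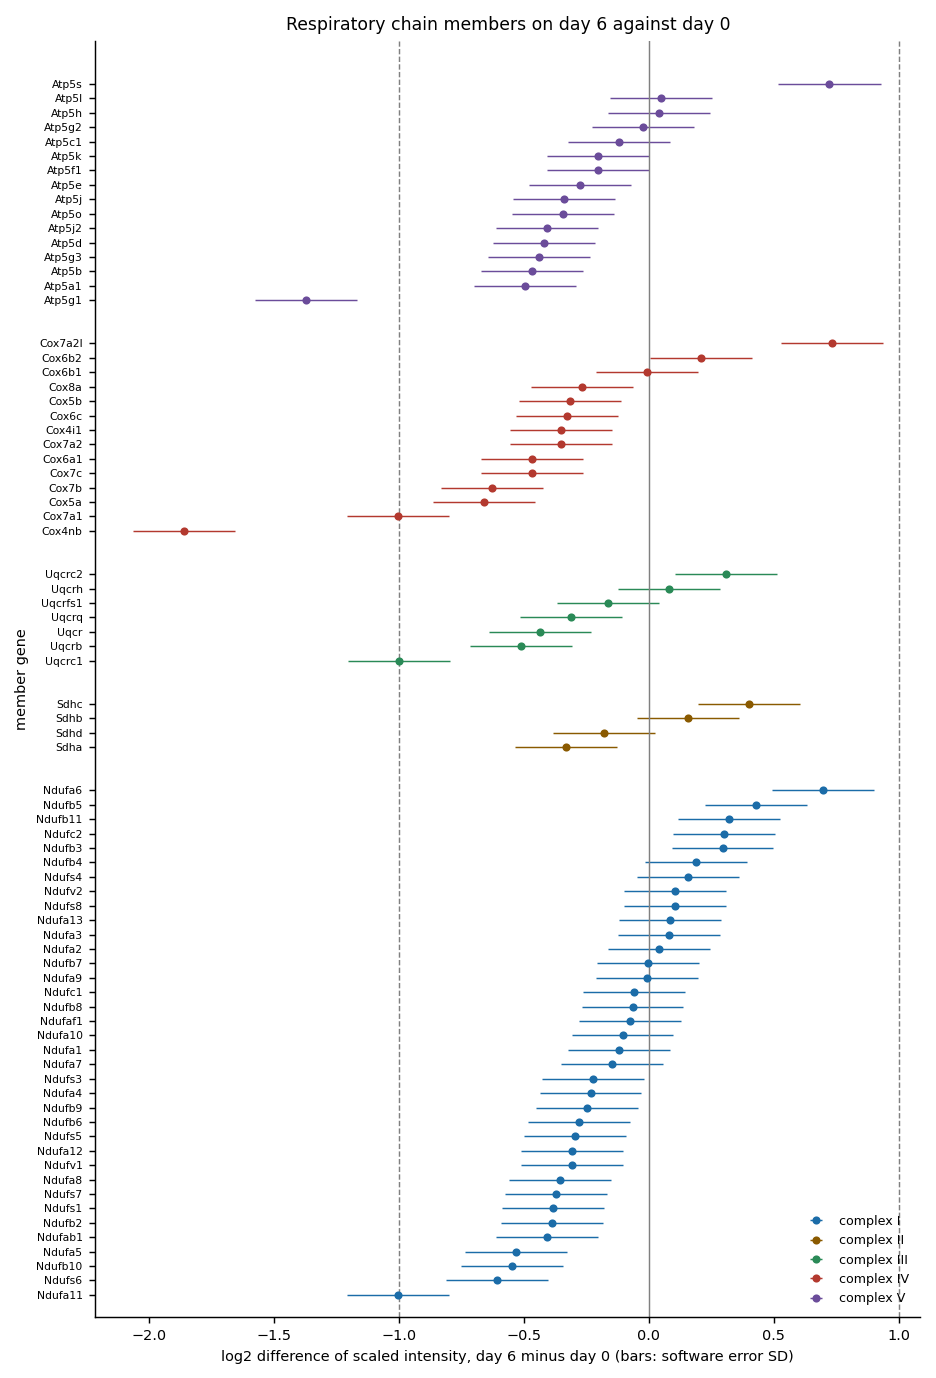
Points are members measured on both arrays, each with its log2 difference, day 6 minus day 0, on the x axis and its name on the y axis, coloured by complex. Bars are the software error SD (about 0.20), dashed lines mark 2-fold, and 4 members (Cox4nb, Atp5g1, Cox7a1 and Ndufa11) lie beyond the lower line and 0 beyond the upper one.

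Complex IV, cytochrome c oxidase, had the lowest median in 14 of 16 settings compared, the reported one included. Settings that change only a scaling factor cannot alter this order, so the 16 are not separate checks. Complex III was lowest with a gene's probes averaged (-0.43, against -0.35 for complex IV). It was also lowest with every probe counted (-0.37, against -0.35). With Cox4nb in it, its spread was the widest (SD 0.59 over 14 names). Without Cox4nb and Cox7a2l, which are not structural subunits, its SD was 0.31 over 12 names, the lowest. The subunits of complexes I, II, III and V had SDs of 0.33, 0.33, 0.43 and 0.34. The complex IV median over 16 measured names was -0.35, and 13 of the 16 lay below 0 (12 without scaling). The complexes overlapped widely, so the order of the medians (complex II at -0.01, I at -0.11, V and III at -0.31, IV at -0.35) is a description. The difference between the medians of complexes I and IV was 0.24 as reported and 0.19 to 0.30 across the 16 settings. With only a changed scaling factor it stays at 0.24 by construction. The widely used forms of the nuclear subunits ranged from -0.66 (Cox5a) to -0.01 (Cox6b1). Cox4i1, a regulatory subunit, had intensities of 268871 (day 0) and 244493 (day 6), a difference of -0.35 ± 0.20. Cox5a, which lies beside it on the matrix side, was lower at -0.66 ± 0.20 (284287 and 208816 units). A much dimmer second Cox5a probe (353 and 223 units) gave -0.88. Cox6a1 stood at -0.47, Cox7a2 at -0.35 (-0.36 by its other probe), Cox7b at -0.63, Cox7c at -0.47 and Cox8a at -0.27. Cox6b1 and Cox6b2, forms of a subunit on the intermembrane side of which the latter is known from testis, had 9304 and 10733 units and 8916 and 11935 units, with differences of -0.01 and 0.21. These differences lay 0.21 ± 0.29 apart, less than the error.

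The complex IV subunits past 2-fold were tissue-restricted forms, Cox7a1 and Cox8c. Cox7a1, the form of heart and skeletal muscle, went down from 9221 to 5325 intensity units, a difference of -1.01 ± 0.20, while the liver-type paralogue Cox7a2 had 80193 and 72761 units. The differences of these forms lay 0.65 ± 0.29 apart. Cox7a2l, a relative that takes part in joining complexes III and IV into supercomplexes, had 43943 and 84641 units, a difference of 0.73 ± 0.20, the highest of any member measured on both arrays. Its difference exceeded that of Cox7a1 by 1.74 ± 0.29 and that of Cox7a2 by 1.09 ± 0.29, and it passed 2-fold after quantile normalization and in the authors' deposited value table, reaching 1.07. Cox8c, known from testis, had 175 units on day 0 and was not well above background on day 6 (17.5 units), so it was at least 2.39-fold lower. The muscle forms Cox6a2 (50.4 and 108 units, well above background on day 6 only) and Cox8b (22.2 and 17.8 units) and the hypoxia- and lung-associated form Cox4i2 (76.0 and 38.2 units) were near or below background, and no fold is given for them. Cox7b2, the testis form of Cox7b, is on the array under a Rik name and so outside the rule for members. It had 231 units on day 0 and was not well above background on day 6, which makes it at least 3.15-fold lower. All 3 germ line markers tested (Ddx4, Dazl and Sycp3) were at least 2-fold lower too, with summed intensities of 12164 and 639, and the median was -3.97. Cox6b2, also known from testis, went the other way, at 0.21, and was above 0 in every setting tried. Of 6 muscle markers, 4 were measured, with Actc1 lower (7201 and 2006 units) and Myh7 higher (1339.8 and 18277 units), and their sums were 9496 and 21350.5. The part of such cells in these values was not tested.

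Among members measured on both arrays, the largest difference was not that of a subunit. Cox4nb, the neighbour gene of Cox4i1 that is now named Emc8 and encodes a part of an endoplasmic reticulum membrane complex, fell from 46141 to 14720.3 intensity units, a difference of -1.86 ± 0.20. Its second probe had 3572 and 4020.2 units and a difference of -0.04, so the probes of this gene disagree by 1.82. The brighter probe lies at chr8:119292980-119293039, near that of Cox4i1, whose difference was higher by 1.51 ± 0.29. Without the 4 names that are not structural subunits (Cox4nb, Ndufaf1, Cox7a2l and Atp5s), 76 measured members remained, of which 4 were at least 2-fold lower and 0 higher, with a median of -0.26.

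**Figure D3:**
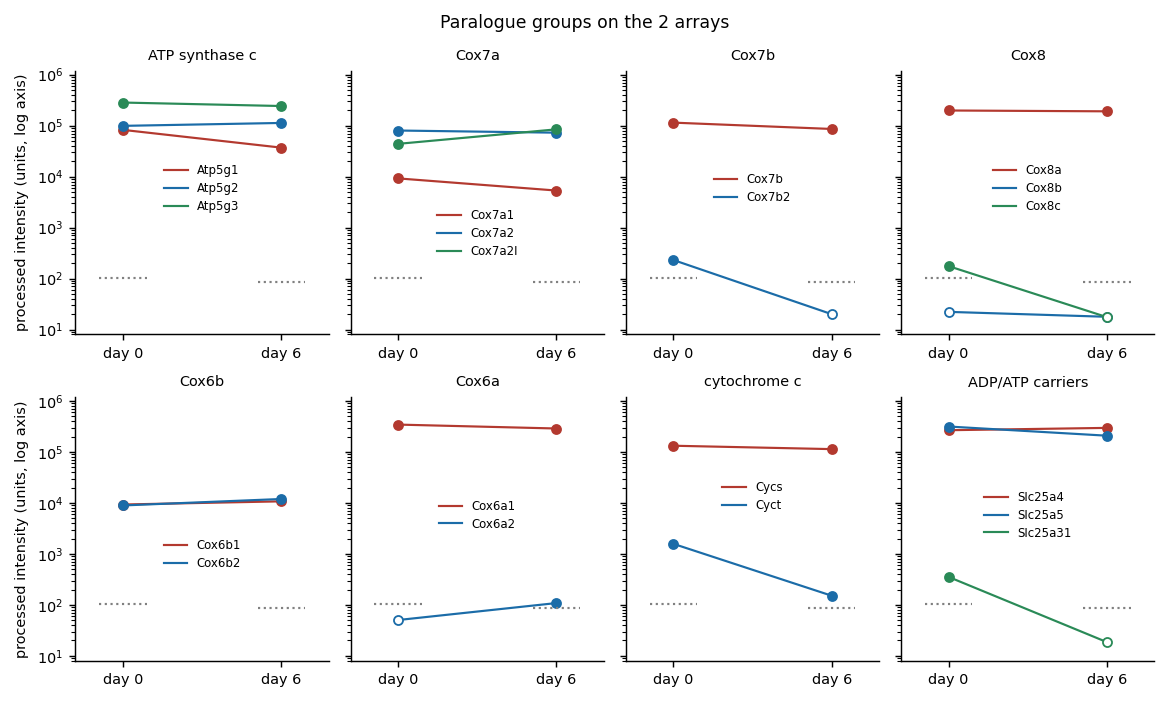
Processed intensity (y axis, log scale) on day 0 and day 6 (x axis) for paralogues of complex IV and V subunits, of cytochrome c and of the ADP/ATP carriers; a line joins the values of the same probe, an open circle marks a value not well above background, and dotted marks give the lowest intensity well above background (102 and 85.2). Levels of different probes are not comparable. Atp5g1 and Cox7a1 slope down beside flatter paralogues, and Cox7b2, Cox8c, Cyct and Slc25a31 drop from low day 0 levels.

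In complex V the c subunit genes separated. Atp5g1 fell from 82589.9 to 37025 intensity units, a difference of -1.37 ± 0.20 (2.59-fold lower), and it was at least 2-fold lower in each of the 12 alternatives tried, which held for 0 of the other 4 called members. Atp5g2 had 99003 and 112956 units and stood at -0.02 ± 0.20, with 0.06 by the second probe printed above. Atp5g3 had 283805 and 242559 units and stood at -0.44 ± 0.20. The difference of Atp5g2 thus exceeded that of Atp5g1 by 1.35 ± 0.29, and that of Atp5g3 exceeded it by 0.93 ± 0.29, values in which a scaling factor cancels. The Atp5g1 value rests on 1 probe, and cross-binding between the c subunit transcripts was not tested.

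The remaining complex V genes lay within 2-fold. The 5 genes of the catalytic F1 head and its stalk (Atp5a1, Atp5b, Atp5c1, Atp5d and Atp5e) ranged from -0.50 to -0.12, with a median of -0.42. Atp5b, the catalytic beta subunit, had intensities of 406562 (day 0) and 341050 (day 6), a difference of -0.47 ± 0.20. Atp5a1, the alpha subunit, stood at -0.50 by its brighter probe and at -0.05 by the other. Among peripheral stalk and membrane genes, Atp5h stood at 0.04, Atp5l at 0.05, Atp5f1 at -0.21 and Atp5o at -0.34. Atp5s, a factor now named Dmac2l, had 3629 and 6942 units, with differences of 0.72 ± 0.20 and 0.90 by its probes. The complex V median was -0.31 over 16 members, with 1 lower and 0 higher.

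Members with several probes gave a check within the arrays. Of 22 members with at least 2 probes well above background on both arrays, the probes differed by a median of 0.14 log2 units, 17 by less than 0.25 and 3 by more than 1. Those 3 were Cox4nb (1.82), Ndufb8 (1.43) and Ndufab1 (1.06). Ndufb8, an accessory subunit of complex I, had 122772 and 136011 units by the probe reported here (-0.07) and 1033 and 425 units by a dimmer one (-1.49). Ndufab1, the acyl carrier protein gene, stood at -0.41 and -0.46 by 2 probes and at -1.47 by another. Of the member probes, 0 were saturated on either array.

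**Figure D4:**
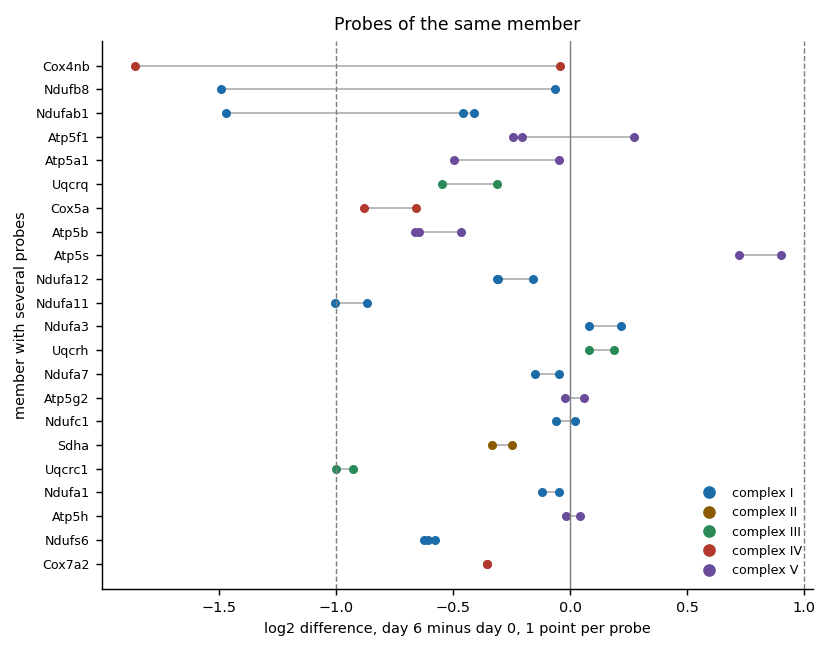
The 22 members for which at least 2 probes stood well above background on each array are listed on the y axis, with the log2 difference, day 6 minus day 0, of each probe on the x axis and colours for the complexes. Joined points lie within 0.25 log2 units for 17 members, and Ndufab1, Ndufb8 and Cox4nb have probes more than 1 apart.

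Promoter sequences were read for the members, since nuclear respiratory factor 1 (NRF1), the ETS-family factor GABP and YY1 are known regulators of respiratory chain genes. RefSeq windows of 300 bases (250 before to 50 after the start, build GRCm38.p6) existed for 67 of the 82 members, in 72 windows. The letters CGCATGCG, the core of the NRF1 motif, stood on either strand in 9 of the 67 genes (13.4%), against 2.07% of all 27025 genes with a window. CCGGAAG, an ETS-type motif, stood in 17 (25.4%) against 9.93%, and AGATGGCGG, a YY1 core, in 5 (7.46%) against 1.24%. The longer forms gave 5 genes (7.46% against 1.07%) for the NRF1 core flanked by G and C, 17 (25.4% against 5.19%) for that form with any base in place of its T, and 4 (5.97% against 0.755%) for the YY1 core flanked by A and C. Motifs were searched separately, so that a stretch could be counted under several of them. The comparison genes were all those with a window, not matched to the members for expression or base composition. The 250 bases before the start are printed for Atp5g1 (chr11:96075632-96075881, minus strand) and Ndufa11 (chr17:56717512-56717761, plus strand), which were lower, and Atp5g2 (chr15:102671048-102671297, minus strand), which was not, with matches to the NRF1, ETS and YY1 letters in capitals. The Atp5g2 and Ndufa11 stretches held 1 NRF1 core each and that of Atp5g1 held 0 matches, which says only that these letters are not in that stretch.
Atp5g1 promoter: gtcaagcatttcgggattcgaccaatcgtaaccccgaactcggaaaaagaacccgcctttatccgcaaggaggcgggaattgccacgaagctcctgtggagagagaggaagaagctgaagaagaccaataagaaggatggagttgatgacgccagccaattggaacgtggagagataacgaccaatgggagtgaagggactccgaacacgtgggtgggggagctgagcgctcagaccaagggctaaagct
Atp5g2 promoter: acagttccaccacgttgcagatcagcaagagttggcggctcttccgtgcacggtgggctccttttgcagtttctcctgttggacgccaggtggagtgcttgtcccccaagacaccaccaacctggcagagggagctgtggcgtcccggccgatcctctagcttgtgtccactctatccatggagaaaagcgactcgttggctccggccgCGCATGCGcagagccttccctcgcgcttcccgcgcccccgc
Ndufa11 promoter: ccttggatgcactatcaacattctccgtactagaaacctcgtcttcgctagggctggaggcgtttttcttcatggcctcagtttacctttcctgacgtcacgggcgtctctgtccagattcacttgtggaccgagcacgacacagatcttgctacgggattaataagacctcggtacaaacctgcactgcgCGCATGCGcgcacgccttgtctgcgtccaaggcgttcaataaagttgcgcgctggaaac

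Genes around the chain were read from lists of assembly factors, regulators, carriers and citrate cycle enzymes. The mitochondrially encoded subunits were not analysed here, since 0 of 13 were found by name on the array. Cycs, the somatic cytochrome c, had intensities of 132381 (day 0) and 113569 (day 6) by its brightest probe, a difference of -0.43 ± 0.20, and its other probes gave -0.17 and -0.14. The testis form Cyct had 1573 and 151 units, a difference of -3.59 ± 0.26 (12.1-fold lower). That is the direction of the germ line markers given above, but not of Cox6b2, at 0.21. Of 26 assembly factors measured, 0 were at least 2-fold higher and 3 lower, with a median of -0.20. Over all genes, 18.0% were at least 2-fold higher and 18.8% lower. The lowest was Ecsit (listed as Sitpec), a complex I assembly factor, at -1.32, and the highest Sdhaf1, of complex II, at 0.66.

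Of 13 regulators measured, 1 passed 2-fold upward and 3 downward, against 18.0% and 18.8% of all genes, and the median was -0.51. Pprc1, a coactivator related to PGC-1 alpha, fell from 75348 to 22769 intensity units, a difference of -1.94 ± 0.20 (3.84-fold lower). The mitochondrial RNA polymerase gene Polrmt was lower at -1.41 and its cofactor Tfb2m at -1.02, but -0.78 by a second Tfb2m probe. Ppargc1b stood at 0.54. Ppargc1a (PGC-1 alpha), a coactivator of respiratory genes, was not well above background on day 0 (21.3 units) and had 2684 units on day 6, at least 22.6-fold higher, and a second probe gave a log2 bound of 1.90. Polrmt, Tfb2m and Ppargc1a lie outside the naming rule and were chosen after their values were seen, as were the genes named next. Nrf1, the gene of NRF1, stood at -0.58 by its brightest probe and at -0.13 by the other. The probes of Gabpa, which encodes the DNA-binding subunit of GABP, disagreed, at -0.51 by the brightest and at -1.93 and -2.10 by the others. Gabpb1, its partner, stood at 0.23 by the brightest probe and at 0.31 and 1.09 by the others.

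Citrate cycle and pyruvate dehydrogenase genes gave a median of -0.05, and 0 of the 16 passed 2-fold upward and 1 downward. That gene was Idh3a, a subunit of isocitrate dehydrogenase, with 66073 and 35878 units (-1.09 ± 0.20), and the highest was Suclg2 at 0.44. Of 8 genes of ATP and phosphate transport, 0 were higher and 2 lower, with a median of -0.52. The phosphate carrier Slc25a3 stood at -1.09 by its brightest probe, and its dimmer probes gave 0.26 and -1.53. Vdac3, an outer membrane channel, was highest at 0.12. Slc25a31, an ADP/ATP carrier known from germ cells and ES cells and named outside the rule, had 353 units on day 0 and was not well above background on day 6 (18.6 units), with a log2 bound of -2.26. Among 3 measured uncoupling proteins, Slc25a27, a form of the nervous system, rose from 1069.9 to 4679 units (1.92 ± 0.21) and Ucp2 fell from 1414 to 814 units (-1.01 ± 0.21). The share of members past 2-fold, 6.25% lower and 0 higher, stood beside 3 of 26, 1 of 16 and 2 of 8 lower in the assembly factor, citrate cycle and transport lists. Of the regulators 3 of 13 were lower, of the uncoupling proteins 1 of 3 and of the mobile carriers 1 of 2. Over all genes, 18.8% were lower and 18.0% higher, and these lists are small.

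**Figure D5:**
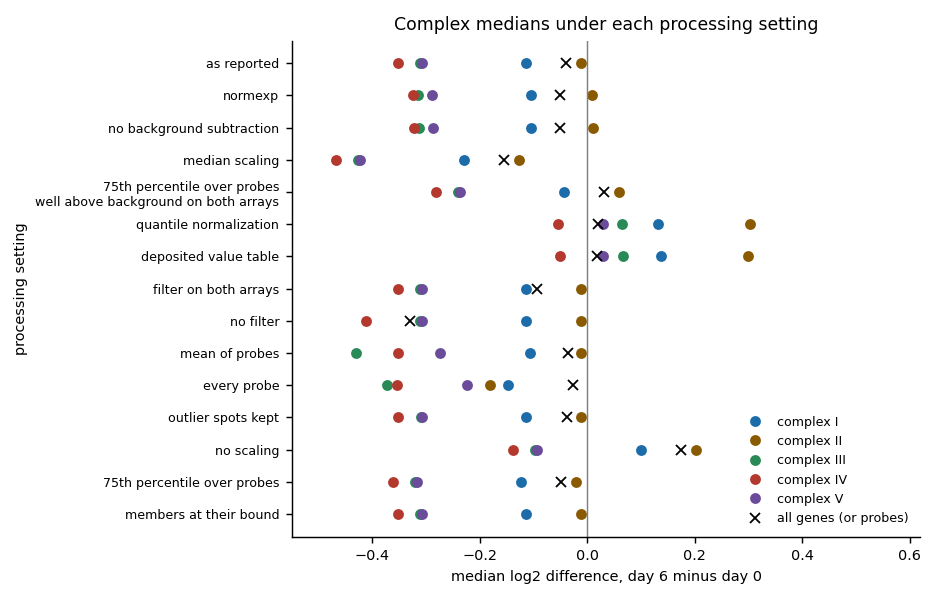
Median log2 difference (x axis) of complexes I to V, as coloured points, and of all genes or probes, as crosses, under the processing settings (y axis). A changed scaling factor moves all points together, but quantile normalization and the deposited value table do not. From the reported setting to quantile normalization, the complex I median goes from -0.11 to 0.13 and that of all genes from -0.04 to 0.02. The complex I median runs from -0.23 with median scaling to 0.14 in the deposited value table. Complex IV stays left of complex I in every setting plotted.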

How the data were processed

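Total RNA of 2 samples, 1 array each, was labelled with Cy3, per the labels. The deposited scanner files hold, per spot, a processed intensity made by the authors with Feature Extraction 9.5.3.1 (background-subtracted and detrended, per the file headers), on design 014868, with positions in mm7. A further table of log2 values was deposited, whose columns had equal distributions (median 8.53 in both) and which was used as an alternative; its making is not stated in the sources used here, and its differences correlated with those of the scanner files across probes well above background on both arrays (Pearson r 0.995, probes not being independent replicates).

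An array carried 45018 spots, 43379 of them for 41174 gene probes. Spots for controls and outliers (186 on day 0 and 216 on day 6) were left out. The 75th percentile of gene spots was 3858 (day 0) and 4474 (day 6) intensity units. Probes well above background made up 61.5% and 65.5%, and the lowest such intensity was 102 and 85.2. Precision is limited by the number of arrays; the median SD between spots of 127 probes spotted 10 times was 0.0541 and 0.0485 log2 units.

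From the deposited intensities, log2 was taken, the percentile subtracted and spots of a probe averaged. A gene took the value of its brightest probe among those well above background on at least 1 array. A gene dim on 1 array has a bound, written "at least": its bright value against the higher of the dim array's lowest value well above background and its own. No test between conditions was possible, so genes were counted at 2-fold. The software SD of a difference combines the errors of both arrays. Python 3.11.15, R 4.3.3 and limma 3.58.1 (normexp, offset 50) were used, and the counting was tested on simulated data. Names were matched to RefSeq of GRCm38.p6 (82 of 82 members, 4 renamed). Named genes were members past 2-fold, the highest and lowest of each complex, paralogue forms, all complex II genes and the extremes of the other lists measured on both arrays; further members were named to describe each complex, and 1 member, kept in all counts and medians, is neither named nor plotted by itself, being not reported here. The members, lists and rule were chosen with earlier results of these data known.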

Additional observations from a re-analysis of the deposited data

How the results depend on the processing

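No paired analysis was possible because each group had 1 array, and for the same reason no replicate could be left out. The members at least 2-fold lower, 5 as reported, numbered 6 with median scaling, 6 without a filter, 6 with the 75th percentile over probes and 7 when each of 107 probes was counted. They numbered 3 with the 75th percentile over probes well above background on both arrays, 3 after quantile normalization, 3 in the deposited value table, 3 with a gene's probes averaged, 3 without scaling and 2 among members of at least 10000 intensity units. The number at least 2-fold higher was 1 (Cox7a2l) after quantile normalization and 1 in the deposited value table, and 0 in the other settings. After quantile normalization the medians of complexes I to V were 0.13, 0.30, 0.0639, -0.0538 and 0.0292 and that of all members 0.0726. In the deposited value table they were 0.14, 0.30, 0.0655, -0.0515 and 0.0283, with 0.0676 for all members. Without scaling they were 0.10, 0.20, -0.10, -0.14 and -0.0944, with -0.0274 for all members. The cause of these changes was not tested. A changed scaling factor shifts all values by construction, and the members' median minus that of all genes then stayed at -0.20. It was 0.05 both after quantile normalization and in the deposited value table, where the values did not shift together. Over genes of at least 10000 units, the 2-fold counts were 393 and 729. Fewer genes were tested there, and the shares were lower too, at 7.69% and 14.3%.

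Of the called members, Atp5g1 was at least 2-fold lower in 12 of 12 alternatives, Cox4nb in 11 of 12, Cox8c in 9 of 11, Cox7a1 in 8 of 12 and Ndufa11 in 7 of 12, and Uqcrc1 passed in 2 of 12. Among single named members, 746 values under an alternative moved by less than their software error and 212 by more, and 0 called values changed sign. A changed scaling factor shifts every member alike, so these counts depend on which settings were listed and are not separate checks of each member. No scaling, the percentile over probes, the limit of 10000, members at their bound and the shorter motif cores were chosen after seeing the data. Signal over background limits Cox8c, Cox6a2, Cox4i2 and Cox8b.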

Other observations

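Some genes now named by the same stems were listed on the array under other names and so lay outside the rule. Of 16 such names measured, 0 passed 2-fold upward and 1 downward (Cox7b2, by its bound), with a median log2 difference of -0.04. Uqcr10, a small complex III subunit, went from 112647 to 85422 intensity units (-0.61). Ndufv3, a complex I subunit of the NADH-binding arm, had 25793 and 37946 units (0.34). The ATP synthase genes Atp5md and Atp5mpl stood at -0.33 and 0.02. Among assembly factors of complex I, Ndufaf4 stood lowest at -0.74 and Ndufaf5 highest at 0.35, and among those of complex II, Sdhaf2 stood at -0.34 and Sdhaf3 at 0.63. A further, dimmer probe for Sdha under a Rik name had 575 and 930.3 units and a difference of 0.48. That is on the other side of 0 from the value of -0.33 reported for Sdha. The second Sdha probe within the rule, with 9156 and 8930 units, gave -0.25, on the same side as the reported value.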
